A study of Rattus norvegicus with 12 samples.

Results

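The diet by estradiol interaction of the rat mammary gland is described here, that is, by how much the change of each gene with 17β-estradiol (E2) in soy-fed rats differed from its change with E2 in casein-fed rats. It was taken over all 12 arrays of the series, which give 11 samples, and over 14217 genes, as the mean of Estradiol-Soy minus Soy less the mean of Estradiol minus Casein. The animals, female Sprague-Dawley rats, received a diet whose protein was casein (from milk) or soy protein isolate from postnatal day 30 to day 64, and all were ovariectomized on day 50. From then E2 replacement came from a mini-osmotic pump in the groups titled Estradiol and Estradiol-Soy, and the other groups had vehicle, for 14 days. Casein and Soy therefore differ in diet without E2, and Estradiol and Estradiol-Soy carry the same diets with E2, the casein diet of Estradiol being given by the treatment protocol and not by its title. Abdominal gland pairs were collected on day 64, and each array held RNA of 1 pool, with 3 pools a group. Nothing in the labels says how many animals a pool held or whether pools shared animals, so the spread behind each p-value is that of these pools and may be technical. The comparison asks whether the response to E2 depends on the protein eaten.

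Estradiol acts in the mammary gland through nuclear receptors in a subset of luminal epithelial cells, which pass the signal to neighbouring cells by secreted factors such as amphiregulin and RANKL. Soy protein isolate carries isoflavones, plant compounds that bind estrogen receptors weakly. Ovariectomy removes the main source of estrogen, so a gene whose E2 response differs by diet shows up as a difference of differences, and a negative value means that its change with E2 was less positive, or more negative, with soy than with casein.

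Values are log2 values that the deposited table centres on the median of each probe set, so they show how arrays differ but not how strongly a gene is expressed. Precision is limited by how few arrays there are. Estradiol pools 2 and 3 differed with an SD of 0.163 over all probe sets, against 0.301 or more in the other 65 pairs of arrays, and were counted as 1 sample, so n = 2 for Estradiol and n = 3 for the other groups. Casein pool 3 held liver transcripts (mean of the 25 measured liver genes 4.92, between -0.32 and 0.26 in the other samples). Muscle transcripts were high in Casein pool 2 (2.81) and Soy pool 2 (2.89) and raised in Casein pool 1 (1.22), against at most 0.34 in the other samples. Hybridisation spike-ins (mean of 18 probe sets) lay above 0 in 6 arrays, from 0.06 in Casein pool 3 to 1.11 in Casein pool 2. In the other 6 they lay between -0.22 and -0.09. Centring puts about as many arrays above as below 0, so the even split does not by itself show 2 sets of arrays. Above 0 were all 3 Casein pools but only 1 array of each other group (Estradiol pool 1, Soy pool 1 and Estradiol-Soy pool 2). Spread within these thus comes from the Casein pools alone, and only differences and medians are given for them. A label field names hepatic expression while the source field names mammary gland. With centred values the presence of a marker cannot be read, and the liver markers Fabp1 and Ahsg were high in Casein pool 3 alone.

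No gene passed the test of the difference after adjustment. Limma called 0 of 14217 genes (0%) at a Benjamini-Hochberg adjusted p under 0.05, the smallest adjusted p was 0.141, and 929 genes (6.53%) had an unadjusted p under 0.05, as had 6.67% of probe sets tested singly. Of these 414 (2.91%) had a positive and 515 (3.62%) a negative difference, and these shares are the background against which counts of list members are read here. The median difference over all genes was -0.01 on the log2 scale, and 47.1% of genes lay above 0. The 95% confidence interval of the median gene reached 0.44 to either side, and single genes were measured more or less precisely than that.

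The share of genes at an unadjusted p under 0.05 also moved with single pools, and counts of list members without a pool are read against it. With a positive difference it was 2.28%, 3.86% and 3.08% without Casein pool 1, 2 or 3, 2.13%, 3% and 2.93% without Estradiol pool 1, 2 or 3, 4.33%, 2.66% and 2.16% without Soy pool 1, 2 or 3, and 3.57%, 2% and 2.99% without Estradiol-Soy pool 1, 2 or 3. With a negative difference it was, in the same order, 2.67%, 5.78% and 2.86%, 2.87%, 3.71% and 3.69%, 7.02%, 3.4% and 3.17%, and 3.66%, 2.43% and 3.49%. With the spike-in split in the model as a term the shares were 2.48% and 4.07%. Soy pool 1 was thus the pool whose removal raised both shares most. With array weights the shares were 6.95% and 10%, and Soy pool 2 weighed 3.89 against 0.31 for Soy pool 1.

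**Figure D1:**
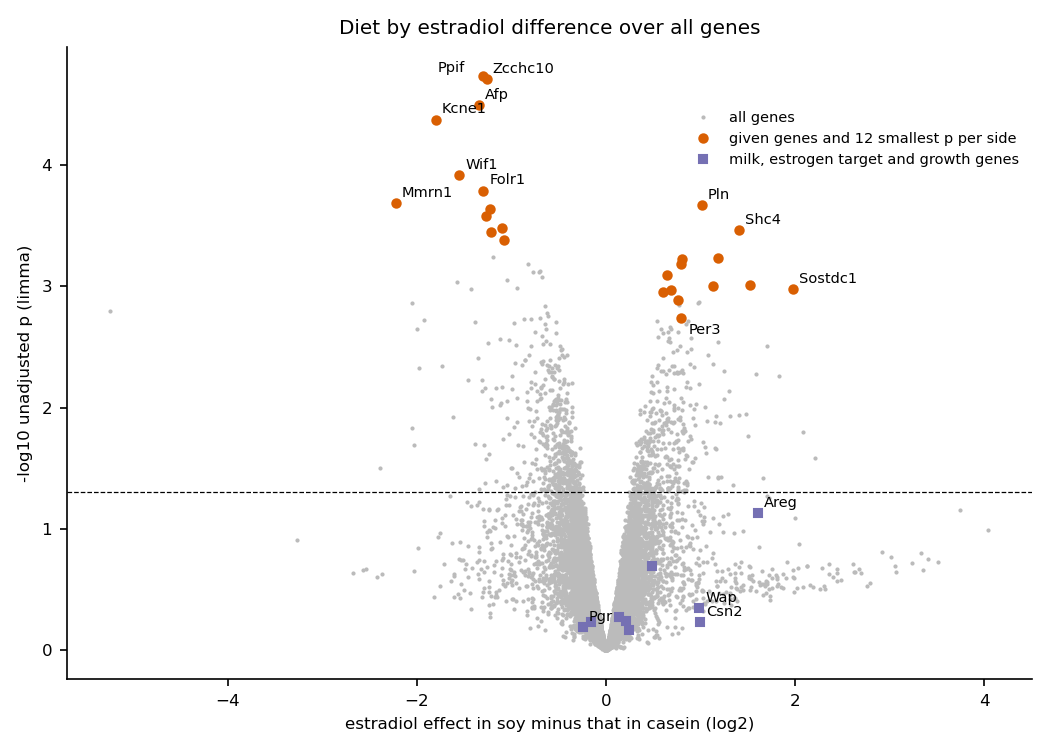
Each point is 1 of 14217 genes, with the estradiol effect in soy minus that in casein (log2) on the x axis and -log10 of limma's unadjusted p on the y axis. The dashed line stands at 0.05. Ppif and Zcchc10 lie highest on the negative side and Pln on the positive side, while Wap, Csn2 and Pgr lie below the line.

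The gene at the top was Ppif, which encodes cyclophilin D, the mitochondrial matrix isomerase that regulates the permeability transition pore. Ppif stood at 1.47 and 1.13 in the 2 Estradiol samples, at -0.10, -0.15 and -0.12 in the Casein pools, at 0.07, -0.14 and -0.12 in the Soy pools and at 0.05, 0.20 and -0.05 in the Estradiol-Soy pools. Only the Estradiol samples were high, and they did not overlap any other group. The difference was -1.30 ± 0.17 (log2 ± SE of the fit, a factor of 2.46; limma adjusted p = 0.141). Ppif passed under some other settings, with a limma adjusted p of 0.0119 when the spike-in split was a term and 0.0346 with array weights. With 12 separate arrays, which count the near-identical Estradiol pools 2 and 3 as 2 samples, its adjusted p was 0.0413. Beside Ppif, other genes of the mitochondrial pore and of apoptosis had smaller differences. Of 24 measured, 0 had a positive and 3 a negative difference with an unadjusted p under 0.05, against 2.91% and 3.62% of all genes. These were Ppif and the survival genes Mcl1 (-0.65 ± 0.24) and Bcl2l1 (-0.35 ± 0.15), the last in only 3 of the 12 fits without 1 array. The negative count was 1 without Estradiol-Soy pool 2 (2.43% of all genes). The 3 probe sets of Bcl2l1 ranged from -0.70 to -0.06. The pore's outer membrane channels Vdac1 (-0.05), Vdac2 (-0.04) and Vdac3 (0.02) lay near 0, and the adenine nucleotide carriers Slc25a4 (-0.11 ± 0.24) and Slc25a5 (-0.36 ± 0.25) did not pass. Among 25 cyclophilin and FKBP genes Ppif was the only member with an unadjusted p under 0.05.

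In Zcchc10, Kcne1 and Folr1 the Estradiol samples also lay above every other sample. Zcchc10, a zinc finger gene, stood at 0.92 and 0.85 in Estradiol, at -0.57, -0.77 and -0.56 in Casein, at -0.17, 0.02 and -0.19 in Soy and at 0.31, 0.15 and -0.02 in Estradiol-Soy. The Estradiol samples were above all others and the Casein pools below all others, and the difference was -1.26 ± 0.16 (limma adjusted p = 0.141). Kcne1 encodes the small subunit that slows the potassium channel KCNQ1. It stood at 1.81 and 1.59 in Estradiol, at -0.13, -0.17 and -0.50 in Casein, at 0.26, -0.23 and -0.18 in Soy and at 0.34, -0.11 and 0.11 in Estradiol-Soy. Again Estradiol alone was high, with a difference of -1.80 ± 0.26 (limma adjusted p = 0.151). The other 30 measured potassium channel genes held 1 positive (Kcne3, 0.26 ± 0.11) and 1 negative member (Kcnk6, -0.39 ± 0.16) at an unadjusted p under 0.05. The shares over all genes were 2.91% and 3.62%, and Kcnq1 had a difference of 0.07 ± 0.21. Single probe sets gave 0.18 and 0.34 for Kcne3, neither under that threshold by itself, and -0.53 and -0.26 for Kcnk6. Folr1, the folate receptor of epithelia, had 1.32 and 1.37 in Estradiol against at most 0.53 in any other sample, and its difference was -1.30 ± 0.22. Adamts19, a secreted metalloprotease (-1.27 ± 0.23), Fibin (-1.08 ± 0.20) and Tmem44 (-1.21 ± 0.23) likewise had Estradiol above every other sample, and none of them passed.

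Afp and Slc35c2 differed in another way, with Estradiol-Soy below every other sample. Afp encodes alpha-fetoprotein, a fetal plasma protein that in rodents binds estrogens. It stood at -0.72, -0.57 and -0.79 in Estradiol-Soy, at 0.38, 0.44 and 0.68 in Soy, at -0.07 and 0.25 in Estradiol and at -0.10, -0.17 and 0.07 in Casein. The Soy pools were the highest, the Estradiol-Soy pools the lowest, and the Casein and Estradiol samples overlapped. Its difference was -1.35 ± 0.18 (limma adjusted p = 0.151). The adjusted p was 0.0346 with array weights and 0.0413 with 12 separate arrays, which count Estradiol pools 2 and 3 as 2 samples. Casein pool 3, which held the liver transcripts, had Afp at 0.07, and over the 12 fits without 1 array the difference lay between -1.51 and -1.26. Slc35c2, of a nucleotide sugar transporter family, stood at -0.47, -0.34 and -0.18 in Estradiol-Soy and at -0.06 or above elsewhere, with a difference of -1.10 ± 0.20.

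Wif1, which binds Wnt proteins outside the cell and blocks them, stood at 0.39 and 0.25 in Estradiol, at -0.55, -0.44 and -0.43 in Casein, at 0.07, 0.52 and 0.69 in Soy and at -0.38, -0.56 and -0.07 in Estradiol-Soy. The difference was -1.55 ± 0.25 (limma adjusted p = 0.343). With array weights, which put 3.89 on Soy pool 2 and 0.31 on Soy pool 1, the adjusted p was 0.0303. Wif1 was thus higher with E2 in the casein groups and lower with E2 in the soy groups, with no overlap within either diet. Such an opposite arrangement without overlap was found in 120 of all genes (0.844%; 0.443% in the direction of Wif1 and 0.401% in the reverse) and in 9 of the 25 genes named here by smallest p or by earlier results of these data, which were picked for a large difference. Sostdc1, a secreted antagonist of bone morphogenetic proteins, had the reverse arrangement. Sostdc1 stood at -0.30 and -0.36 in Estradiol, at 0.68, 0.06 and 0.29 in Casein, at -0.06, -0.08 and -0.53 in Soy and at 0.37, 1.36 and 1.5 in Estradiol-Soy, and its difference was 1.98 ± 0.43. Chordin, the product of Chrd and also an antagonist of these proteins, had a smaller difference in the same direction (0.69 ± 0.15). Neither passed the adjusted test.

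Of 37 measured Wnt and RANKL pathway genes 0 had a positive and 2 a negative difference with an unadjusted p under 0.05. The shares over all genes were 2.91% and 3.62%, and the median of the list was -0.08. Besides Wif1 the other was Tnfrsf11b, which encodes osteoprotegerin, the decoy receptor of RANKL. Tnfrsf11b stood at 1.0, 0.75 and 1.01 in Soy, at -1.10, -0.63 and -0.22 in Estradiol-Soy, at 0.63 and 0.00 in Estradiol and at -0.11, 0.52 and -0.75 in Casein, with a difference of -2.0 ± 0.48. Soy was the highest group, and Casein and Estradiol overlapped. The ligand gene Tnfsf11 (-0.53 ± 0.47), its receptor gene Tnfrsf11a (-0.02 ± 0.57), Wnt4 (0.96 ± 0.56) and the Wnt target Axin2 (0.70 ± 0.45) did not pass. The negative count was 4 without Casein pool 2 (5.78% of all genes) and 6 without Soy pool 1 (7.02%). Within the arrays with spike-ins above 0 the median was -0.18.

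Other genes of smallest p on the negative side were Mmrn1 and Fancl. Mmrn1 encodes multimerin, a protein of platelets and endothelium. It stood at 1.0 and 0.52 in Estradiol and at -1.09, -0.74 and -0.25 in Casein, against 0.50, 0.48 and 0.02 in Soy and -0.62, -0.69 and -0.02 in Estradiol-Soy. Within each diet the groups did not overlap, in opposite directions, and the difference was -2.23 ± 0.38 (limma adjusted p = 0.364). Fancl, the ubiquitin ligase of the Fanconi anaemia pathway, had -1.23 ± 0.22, with Casein (-0.43, -1.01 and -0.56) below every other sample.

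On the positive side the smallest p belonged to Pln, which encodes phospholamban, the inhibitor of the sarcoplasmic calcium pump. Pln stood at 0.44, 0.50 and 0.71 in Casein, at -0.41 and -0.37 in Estradiol, at 0.07, -0.13 and -0.15 in Soy and at -0.16, -0.04 and 0.21 in Estradiol-Soy. Casein was the highest and Estradiol the lowest group, the soy groups overlapped, and the difference was 1.01 ± 0.18 (limma adjusted p = 0.364). Its 3 probe sets ranged from 0.21 to 1.55. Dpep2, a dipeptidase (0.80 ± 0.16), Gucy1a1, a subunit of the nitric oxide receptor (0.79 ± 0.16), and Dnai7, of the axonemal dynein (0.65 ± 0.14), also had Casein above every other sample.

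Shc4, Erich2 and Cpne7 were high in Estradiol-Soy alone. Shc4, an adaptor of receptor tyrosine kinases, stood at 0.74, 1.08 and 0.96 in Estradiol-Soy, at -0.65, -0.87 and -1.10 in Soy, at 0.26 and 0.00 in Estradiol and at 0.08, -0.49 and -0.38 in Casein. Estradiol-Soy lay above and Soy below all other samples, with a difference of 1.41 ± 0.26 (limma adjusted p = 0.389). Erich2 had 1.02, 1.41 and 0.91 in Estradiol-Soy and at most 0.16 elsewhere (difference 1.19 ± 0.24). Cpne7, a calcium-dependent membrane-binding protein, had 0.78, 0.93 and 0.79 there and at most 0.30 elsewhere (1.52 ± 0.32). Xylulokinase Xylb (1.13 ± 0.24), aminopeptidase Aopep (0.61 ± 0.13) and the glycosyltransferase Gcnt2 (0.77 ± 0.17) complete the 12 genes of smallest p on this side, and none passed.

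**Figure D2:**
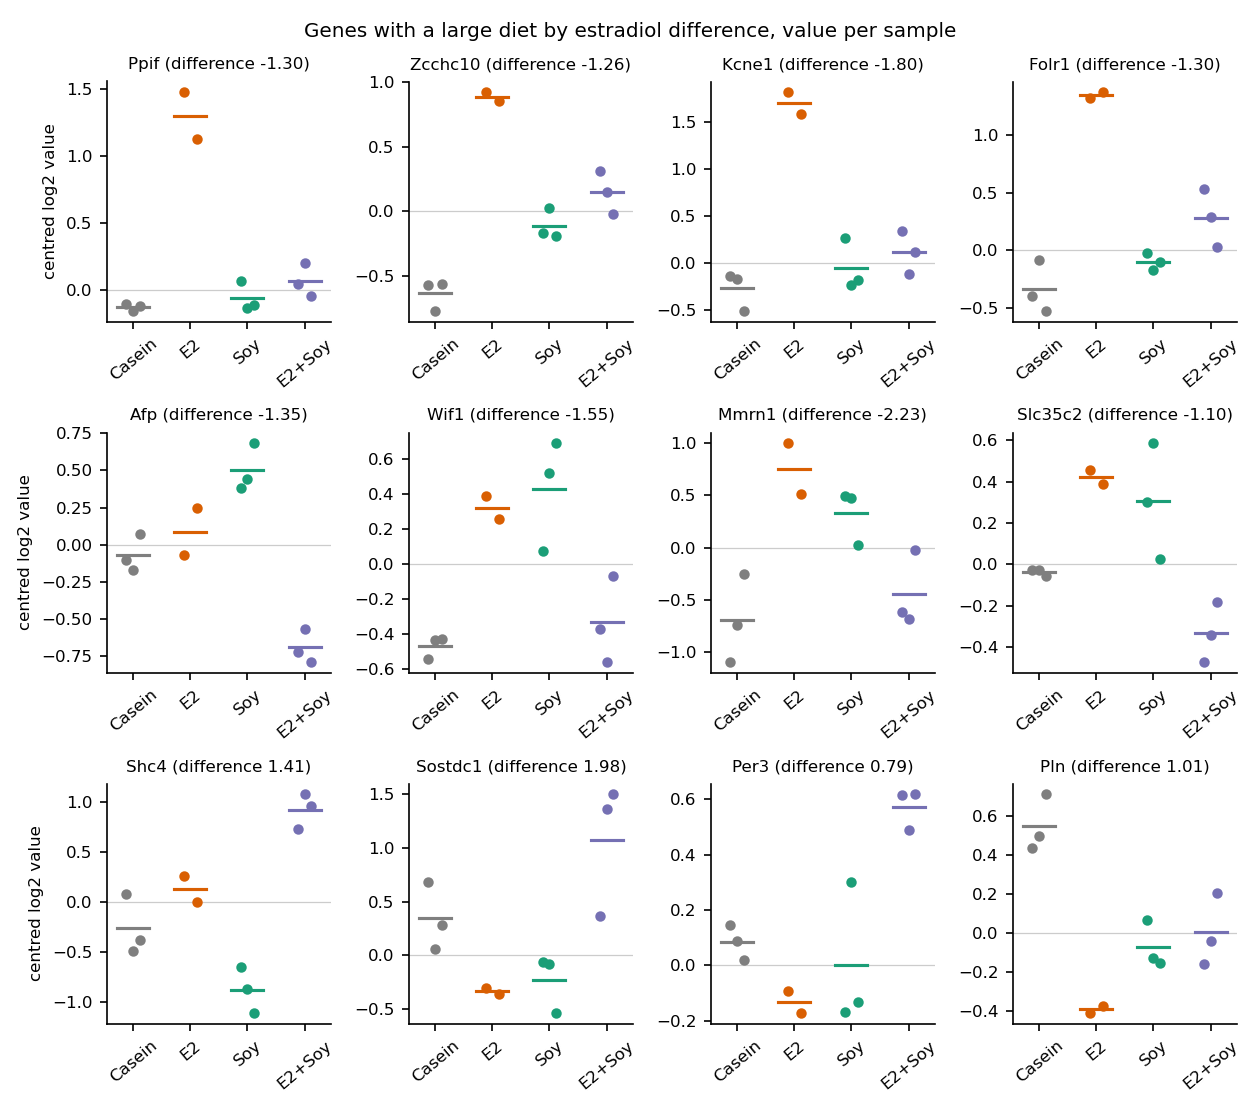
Points are samples and bars group means of centred log2 values for 12 genes, with E2 for the group Estradiol (2 samples) and E2+Soy for Estradiol-Soy (3). In the top row Estradiol alone is high, in Wif1, Mmrn1 and Slc35c2 the casein and soy groups move in opposite directions, and in Shc4, Sostdc1 and Per3 the highest sample is one of Estradiol-Soy.

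Which group stood apart was counted for the 929 genes. Estradiol had the mean farthest from the mean of the other groups in 346 of them (37.2%, and 25.4% of all genes), Casein in 279 (30.0%, and 27.5%), Soy in 192 (20.7%, and 27.1%) and Estradiol-Soy in 112 (12.1%, and 20.0%). The Estradiol mean rests on 2 samples, 1 of them an average of near-identical arrays, and the part of this in the count was not tested.

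Estrogen response genes held 5 members with a negative and 0 with a positive difference at an unadjusted p under 0.05 among 28 measured, against 3.62% and 2.91% of all genes, and the median was -0.09. They were Ramp3, Cited2, Igfbp5, Ret and Myc, of which Ret was named after its value was seen. Ramp3 encodes a partner of the calcitonin receptor-like receptor. It stood at 0.93 and 0.74 in Estradiol, at -0.75, -0.50 and -0.49 in Casein, at 0.12, -0.19 and -0.12 in Soy and at -0.19, 0.37 and 0.30 in Estradiol-Soy. The groups of the casein diet were far apart and those of the soy diet overlapped, with a difference of -1.19 ± 0.24 (limma adjusted p = 0.477). The transcriptional regulator Cited2 (-0.59 ± 0.15), the binding protein gene Igfbp5 (-0.81 ± 0.21), the receptor tyrosine kinase gene Ret (-0.45 ± 0.18) and Myc (-0.66 ± 0.27) had smaller differences. The 5 probe sets of Igfbp5 ranged from -1.26 to -0.20. Without Casein pool 2 the list had 2 positive and 3 negative members at that threshold (3.86% and 5.78% of all genes), without Soy pool 2 or Soy pool 3 it had 0 and 3, and with the probe set of largest SD in place of the mean 0 and 2 (3.51% of all genes negative).

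The classical estrogen targets had intervals that hold differences of either sign. The 95% confidence interval ran from -1.41 to 0.91 for the progesterone receptor gene Pgr (-0.25 ± 0.52), from -0.81 to 0.48 for Greb1 (-0.16 ± 0.29), from -0.35 to 0.63 for the receptor gene Esr1 (0.14 ± 0.22) and from -0.19 to 3.39 for the epidermal growth factor receptor ligand gene Areg (1.60 ± 0.80). Areg stood at -2.02, -2.89 and -2.88 in Soy and at -1.01, -2.74 and -1.26 in Casein, so Casein pool 2 lay with the Soy pools. Growth genes were as wide, from -0.31 to 1.28 for Mki67 (0.49 ± 0.36), from -0.58 to 1.0 for the cyclin gene Ccnd1 (0.21 ± 0.35) and from -1.03 to 1.52 for Igf1 (0.25 ± 0.57). Of 35 cell division genes 1 had a positive (Cenpf, 0.66 ± 0.27) and 2 a negative difference (the replication factor gene Mcm6, -0.67 ± 0.24, and the mitotic kinase gene Aurka, -0.61 ± 0.25) at an unadjusted p under 0.05. The shares over all genes were 2.91% and 3.62%. Without Soy pool 3 the counts were 4 and 1 (2.16% and 3.17% of all genes).

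Of the milk genes, lactoperoxidase had the smallest p. Lpo, a milk enzyme that acts against bacteria, stood at 3.32 and 3.85 in Estradiol and at 1.69, 1.97 and 0.60 in Estradiol-Soy, against -0.79, -0.87 and -0.60 in Casein and -0.67, -1.04 and -0.89 in Soy. The groups without E2 overlapped and the 2 with E2 did not, and the difference was -2.05 ± 0.46 (limma adjusted p = 0.528). It was the only one of 18 measured milk genes with an unadjusted p under 0.05 (3.62% of all genes were negative at it). Without Casein pool 2 there were 2 positive and 1 negative (3.86% and 5.78% of all genes). Without Casein pool 3 or Estradiol-Soy pool 1 there were 2 negative (2.86% and 3.66%). The interval of the whey acidic protein gene Wap (0.98 ± 1.25) ran from -1.81 to 3.78 and that of the beta-casein gene Csn2 (0.99 ± 1.77) from -2.98 to 4.96. The difference of Wap was 0.44 without Casein pool 3 and 2.04 without Casein pool 2, and that of Csn2 was 0.07 and 2.74.

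Endothelial genes had, of the 35 lists, the largest share of members with a positive difference at the unadjusted threshold. Of 21 measured members 10 had a positive and 1 a negative difference at an unadjusted p under 0.05, against 2.91% and 3.62% of all genes. Above 0 lay 18 members, against 47.1% of all genes, and the median was 0.66. No member passed over all genes (smallest limma adjusted p = 0.528, for Erg). In RNA of whole glands, fewer cells of a type and less RNA per cell cannot be told apart. Erg, a transcription factor of endothelial cells, stood at 0.40, 0.54 and 0.38 in Casein, at -0.51 and -0.75 in Estradiol, at 0.06, 0.13 and -0.14 in Soy and at -0.40, 0.02 and 0.16 in Estradiol-Soy. Its Estradiol samples were below all others and its soy groups overlapped, with a difference of 0.98 ± 0.22. The peptide hormone gene Apln (0.85 ± 0.20) and the vessel factor gene Egfl7 (0.85 ± 0.24) were next by p, and the sialomucin gene Emcn (1.04 ± 0.33), the receptor genes Tek (0.47 ± 0.17) and Tie1 (0.63 ± 0.24), the phosphatase gene Ptprb (0.78 ± 0.26), Esam (0.66 ± 0.25), Vwf (0.77 ± 0.30) and the junction gene Cldn5 (0.76 ± 0.33) followed, these 7 named after their values were seen.

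The exception was Lyve1, the hyaluronan receptor of lymphatic vessels and some macrophages, named after its value was seen. Lyve1 stood at 0.69, 0.76 and 0.49 in Soy and at -0.70, -0.85 and 0.10 in Estradiol-Soy, against -0.14, 0.19 and -0.09 in Casein and 0.13 and -0.21 in Estradiol, with a difference of -1.11 ± 0.34. The other lymphatic genes of the list, Prox1 (-0.23 ± 0.22) and Flt4 (-0.02 ± 0.11), did not pass. The mean of the list was 0.20, 0.28 and 0.25 in Casein, -0.41 and -0.45 in Estradiol, 0.14, 0.11 and -0.04 in Soy and -0.41, -0.01 and 0.10 in Estradiol-Soy. Estradiol-Soy pool 1 lay with the Estradiol samples, and without that pool 16 members had a positive difference at an unadjusted p under 0.05, against 3.57% of all genes. The count was 7 without Soy pool 3, Estradiol-Soy pool 2 or Estradiol-Soy pool 3. Within the arrays with spike-ins above 0 the median was 0.62. Once the spike-in split was a term the count was 9 (2.48% of all genes) and the median 0.55.

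Macrophage genes leaned the other way. Of 17 measured 7 had a negative and 0 a positive difference at an unadjusted p under 0.05, against 3.62% and 2.91% of all genes, with a median of -0.75 and a smallest limma adjusted p of 0.570. The complement genes C1qa (-0.79 ± 0.27), C1qb (-1.28 ± 0.38) and C1qc (-1.04 ± 0.32), the growth factor receptor gene Csf1r (-1.09 ± 0.38), the adaptor gene Tyrobp (-0.69 ± 0.25), the mannose receptor gene Mrc1 (-0.92 ± 0.38) and Adgre1 (-0.75 ± 0.33) made up the 7, of which the last 4 were named after their values were seen. C1qb stood at 0.60, 0.56 and 0.58 in Soy, at -0.27, 0.10 and -1.06 in Casein, at 0.17 and -0.04 in Estradiol and at -0.15, -0.50 and -0.02 in Estradiol-Soy. Soy was above every other sample, while the other groups overlapped. Without Estradiol pool 1, whose group then has a lone sample taken to vary as the others do, 3 members had a negative difference at that threshold (2.87% of all genes), and once the spike-in split was a term 9 had (4.07%). Within the arrays with spike-ins above 0 the median was -1.08.

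Lymphocyte genes had the lowest median of all 35 lists, -1.20 over 24 genes, yet 1 of them, Cd4 (-1.11 ± 0.32), reached an unadjusted p under 0.05. Cd4 is also carried by rat macrophages. The mean of the list followed the spike-in split, between -1.13 and -0.77 in the 6 samples above 0 and between 0.64 and 1.96 in the 5 below. With the split as a term the median was -0.26, within the arrays above 0 it was 0.24, and without Soy pool 1 it was -2.30, with 19 genes negative at an unadjusted p under 0.05 (7.02% of all genes). Each group had a sample with spike-ins above 0, though Estradiol, Soy and Estradiol-Soy had only 1 each, and no Casein pool lay below 0. How much of the list's difference goes with the split was not tested.

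**Figure D3:**
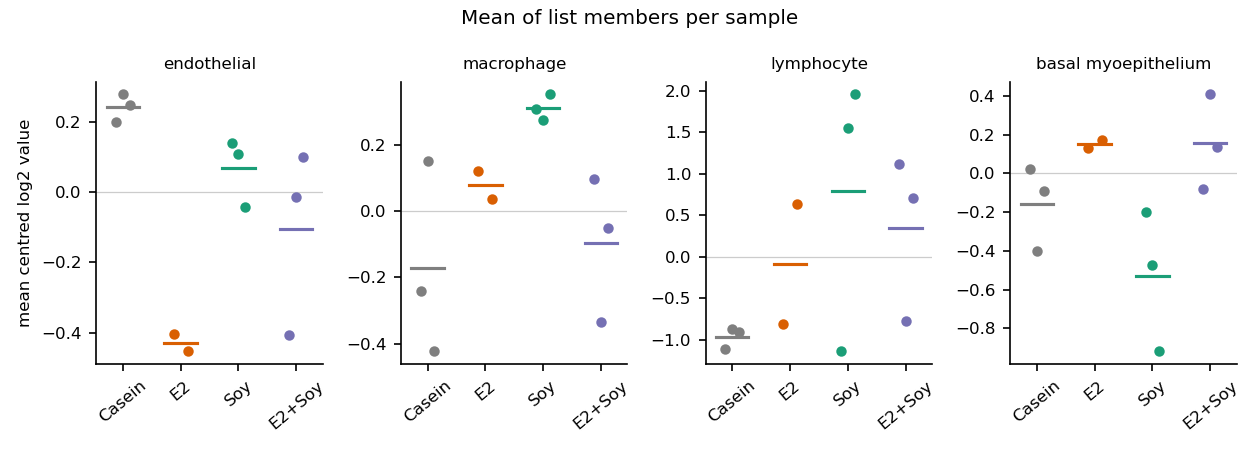
Points are samples and bars group means of the mean centred log2 value of the list members (21 endothelial, 17 macrophage, 24 lymphocyte and 19 basal genes). Estradiol is low for endothelial genes, Soy is high for macrophage genes, and the lymphocyte values split the samples into 6 low and 5 high ones with none between.

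Basal and myoepithelial genes had positive differences in 18 of 19 members (47.1% of all genes), with a median of 0.39. At an unadjusted p under 0.05 were 3 of them (2.91% of all genes). These were Sfn (0.80 ± 0.27), an epithelial 14-3-3 protein, and the contractile genes Myh11 (0.77 ± 0.28) and Tagln (0.70 ± 0.29), which smooth muscle of vessels also expresses. Myh11 stood at -0.54, -0.38 and -0.93 in Soy and at -0.07 or above in every other sample, so Soy stood below the rest. The defining keratin genes Krt5 (0.42 ± 0.56), Krt14 (0.37 ± 0.43) and Krt17 (0.53 ± 0.35) did not reach that threshold. Once the spike-in split was a term the median of the list was 0.18, and 2 members were positive at the threshold (2.48% of all genes). The list was lowest in Soy pool 3 (-0.92), without which the median was 0.16, without Soy pool 1 it was 0.63, and without Estradiol pool 1 no member reached the threshold (2.13% of all genes), while 5 did without Estradiol-Soy pool 1. Luminal genes showed 1 positive (Krt7, 1.08 ± 0.45) and 1 negative member (Kit, -0.60 ± 0.23) of 22, against 2.91% and 3.62% of all genes. Their median was 0.05, and 0 of either sign reached the threshold without Casein pool 1 or Soy pool 2.

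Clock genes are transcription factors and their partners that keep daily time in most tissues, with Per and Cry proteins as repressors and Dbp and Tef as output activators. Time of day at collection is not given in the labels. Of 23 measured 4 had a positive and 0 a negative difference at an unadjusted p under 0.05, against 2.91% and 3.62% of all genes. Per3, a period gene, stood at 0.62, 0.49 and 0.62 in Estradiol-Soy, at -0.17, 0.30 and -0.13 in Soy, at -0.09 and -0.17 in Estradiol and at 0.15, 0.09 and 0.02 in Casein. Estradiol-Soy was above every other sample and Estradiol below Casein, with a difference of 0.79 ± 0.18 (limma adjusted p = 0.537), and its 2 probe sets gave 0.27 and 1.30. Dbp, named after its value was seen, stood at 0.88, 0.34 and 1.03 in Estradiol-Soy, at 0.04, 0.57 and 0.02 in Soy, at -0.55 and -0.65 in Estradiol and at -0.10, -0.02 and -0.69 in Casein (difference 0.87 ± 0.35). Tef (0.54 ± 0.19) and Cry2 (0.45 ± 0.17) had Estradiol below every other sample. Their probe sets ranged from 0.32 to 0.88 for Tef and from 0.31 to 0.59 for Cry2. The activator gene Bmal1 (-0.41 ± 0.21) and Cry1 (-0.43 ± 0.21) had negative differences that did not reach the threshold, and without Estradiol-Soy pool 3 the list had 2 positive and 2 negative members at it (2.99% and 3.49% of all genes), and without Casein pool 2 it had 3 and 2.

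Promoters of 2 of these clock genes are shown because Per3 had the smallest p of the list and Tef was the one of the 4 with the E-box letters, the sequence that clock activators bind. Sequences are from RefSeq (GRCr8), 250 bases before to 50 after the start, 5′ to 3′ on the gene's strand, with CACGTG in capitals. Per3 lies at chr5:166777751-166778050 on the minus strand and Tef at chr7:115206577-115206876 on the plus strand.
Per3: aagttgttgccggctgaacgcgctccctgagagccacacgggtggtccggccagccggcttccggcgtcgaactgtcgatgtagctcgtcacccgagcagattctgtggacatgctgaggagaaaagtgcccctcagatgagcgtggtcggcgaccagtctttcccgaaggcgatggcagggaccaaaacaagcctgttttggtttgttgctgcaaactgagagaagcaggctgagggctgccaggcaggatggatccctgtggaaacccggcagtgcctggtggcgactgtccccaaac
Tef: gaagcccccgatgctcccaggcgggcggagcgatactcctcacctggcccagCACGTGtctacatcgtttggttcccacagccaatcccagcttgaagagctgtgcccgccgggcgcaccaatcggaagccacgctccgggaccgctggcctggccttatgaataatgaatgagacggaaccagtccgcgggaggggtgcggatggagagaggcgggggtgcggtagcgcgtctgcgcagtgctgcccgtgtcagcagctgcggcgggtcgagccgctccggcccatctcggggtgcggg
CACGTG reads the same on both strands and was present in 1 of the 4 genes and in 4 of the 19 clock genes with a window (Bhlhe40, Bhlhe41, Nr1d1 and Tef), against 9.38% of 11700 measured genes and 7.08% of all 27457 genes with a window. The D-box letters TTANGTAA do not read the same on both strands and were sought on the gene's strand only. There they were in 0 of the 4 and in 1 of the 19 (Per2), against 0.769% of measured genes and 1.23% of all. Copies on the other strand were not counted. These are descriptions of letters in 1 window.

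**Figure D4:**
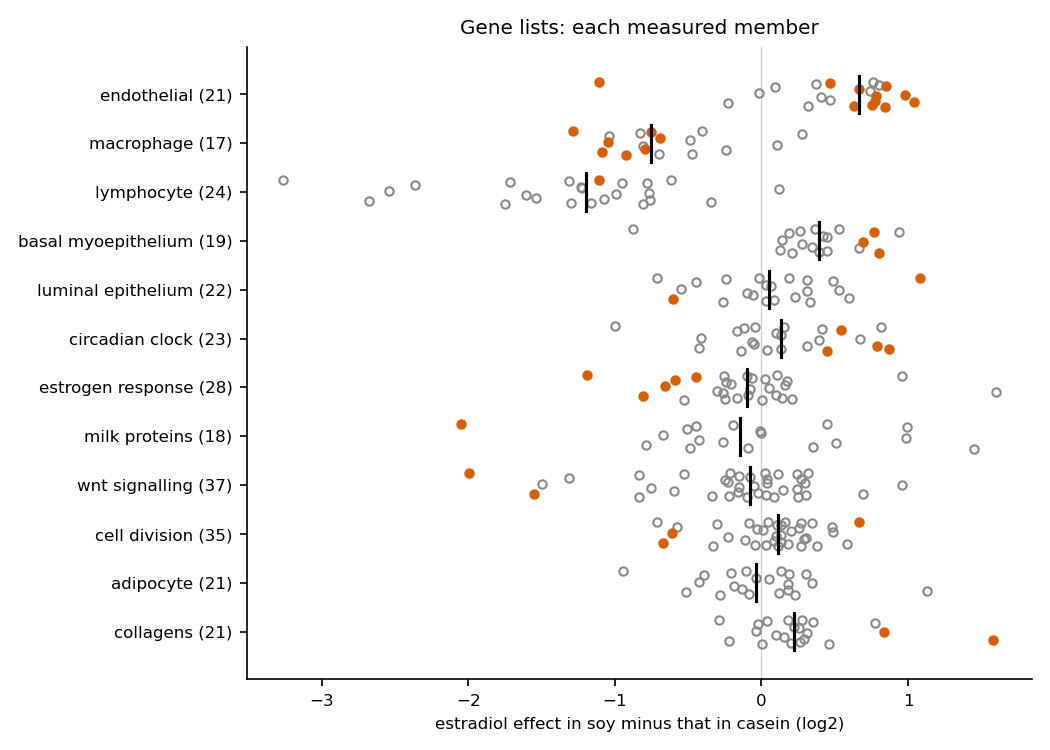
Each circle is a measured member of a list (number of members in brackets), placed at its estradiol effect in soy minus that in casein (log2). Filled circles have an unadjusted p under 0.05 and black bars are list medians. Filled circles lie mostly to the right for endothelial genes and to the left for macrophage genes.

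Fat and lipid lists held few or no members past the unadjusted threshold. None of 21 adipocyte genes, 14 brown fat genes, 22 fatty acid synthesis genes or 23 interferon response genes reached an unadjusted p under 0.05 in limma, and the medians were -0.04, 0.00, -0.14 and 0.03. Of 21 cholesterol synthesis genes 18 lay above 0 (47.1% of all genes) and 1, the kinase gene Pmvk (0.47 ± 0.14), reached it (2.91% of all genes). The median of this list was 0.15, and -0.03 without Estradiol pool 1. Adipocyte values depended on single pools, with a median of -0.46 without Estradiol-Soy pool 3 and 0.34 without Estradiol-Soy pool 1. Brown fat genes held 3 positive members at an unadjusted p under 0.05 without Soy pool 1 (4.33% of all genes). Interferon genes held 1 positive and 3 negative ones without Casein pool 2 (3.86% and 5.78%). The liver list had a median of 2.12 with 0 of 25 members at an unadjusted p under 0.05. Without Casein pool 3 the median was 0.31, and 3 members had a positive difference at that threshold (3.08% of all genes). Skeletal muscle genes had a median of 0.30 with 0 of 27 members, 1.35 without Soy pool 2 and -0.39 without Casein pool 2.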

How the data were processed

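Pooled mammary gland RNA (8 µg a labelling) was measured on rat arrays from Affymetrix, per the labels' protocols. The deposited table holds 31099 probe sets on 12 arrays. GCOS is named in the submitters' processing notes; for summarisation, normalization and log base the sources used here give nothing. From their range (widest 9.85) the deposited values were taken to be log2, and they are centred so that each probe set has a median of 0 over arrays, so levels, background and detection could not be used. Array medians lay between -0.0246 and 0.0112.

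Of the probe sets 20826 carried 1 gene in the platform annotation, 436 several, 9780 were unnamed here and 57 were controls. Averaging the probe sets of each gene left 14217 genes. Groups came from sample titles. Estradiol pools 2 and 3 were averaged. A model of 4 group means with 7 residual degrees of freedom was fitted to 11 samples (limma 3.58.1, eBayes, R 4.3.3), and the interaction was tested two-sided with Benjamini-Hochberg adjustment over all genes. Errors are standard errors of the fit. The code was tested on simulated data.

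The 35 gene lists (728 genes measured), the given genes (Ppif, Afp, Kcne1, Wif1, Per3) and all members were chosen with earlier results of these data known. Named were the given genes, the 12 of smallest p on each side without LOC, RGD, MGC or Rn symbols, up to 3 members of each list with an unadjusted p under 0.05, and Wap, Csn2, Areg, Pgr, Greb1, Esr1, Mki67, Igf1 and Ccnd1. Genes outside this rule are given as list members or are said to be named after their values were seen. Alternatives were quantile normalization, median centring, 12 separate arrays, the probe set of largest SD, every probe set, pool number as a block, array weights, robust eBayes, the spike-in split (whether 18 spike-in probe sets averaged above 0) as a term or its high arrays only, and leaving out each array.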

Additional observations from a re-analysis of the deposited data

How the results depend on the processing

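The interaction test called 0 genes, and 0 in each of the 12 fits without 1 array. It called 4 with 12 separate arrays (Afp, Kcne1, Ppif and Zcchc10), 5 with array weights (Afp, Ppif, Tmem44, Wif1 and Zcchc10) and 1 once the spike-in split was a term (Ppif). Genes with an unadjusted p under 0.05 numbered 929, 2409 with array weights and 2069 of 31042 probe sets (6.67%) when every probe set was tested, and between 631 and 1613 without 1 array, the highest without Soy pool 1. Of 85 named genes 5 changed sign under any of the 21 alternatives fitted by gene, each with an interval that holds 0. With array weights Pgr was 0.0078, Greb1 0.13 and Esr1 -0.10, and within the high spike-in arrays Pgr was 0.29, Esr1 -0.10 and Igf1 -0.37. Without 1 array Pgr ranged from -0.49 to 0.22, Greb1 from -0.29 to 0.0264, Igf1 from -0.27 to 0.65 and Ccnd1 from -0.0340 to 0.40. The low spike-in arrays hold no Casein pool, so no interaction could be had within them. Same-numbered pools of different groups had correlations of their deviations between -0.42 and 0.46, over 0.1 in 5 of 18 pairs. Different-numbered pools had correlations between -0.41 and 0.43, and 2 of 12 arrays correlated best with their own number. Whether pools of the same number shared animals or handling was not tested. With pool number as a replicate block 0 genes passed and 709 had an unadjusted p under 0.05. Signal over background could not be judged from centred values, and the cause of these shifts was not tested.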

Other observations

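Genes of the aryl hydrocarbon and oxidant response, which handle foreign compounds, were uneven among the Estradiol-Soy pools. The quinone reductase gene Nqo1 stood at 1.91, -0.46 and 1.72 in Estradiol-Soy pools 1, 2 and 3, at 0.13, -0.03 and -0.41 in Soy, at -0.74 and -0.51 in Estradiol and at 0.03, 0.09 and 1.16 in Casein (difference 2.21 ± 0.84). Cyp1a1, the classical target of the receptor, stood at 2.73, -0.51 and 3.85 in Estradiol-Soy and at 1.28, -1.60 and 4.84 in Casein, the last in the pool with liver transcripts (difference 4.04 ± 2.23). The receptor's repressor gene Ahrr (0.97, -0.20 and 1.94) and Aldh3a1 (3.05, -0.03 and 2.67) were high in the same pools, 1 and 3, of Estradiol-Soy. Of 28 genes of this list 2, Nqo1 and the metallothionein gene Mt2A (1.66 ± 0.69), had a positive difference at an unadjusted p under 0.05 (2.91% of all genes). There were 0 without Casein pool 3, Estradiol pool 1, Soy pool 3 or Estradiol-Soy pool 1, and 5 without Estradiol-Soy pool 2. Within the arrays with spike-ins above 0 the difference of Nqo1 was 0.58, and with the split as a term it was 2.59. Mt2A was arranged otherwise, at 2.36, 1.40 and 0.25 in Estradiol-Soy pools 1, 2 and 3. Cyp1a1, Ahrr and Aldh3a1 were named after their values were seen.

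Clec3b, which encodes the plasminogen-binding protein tetranectin, had the largest difference by size among genes with an unadjusted p under 0.05 and was named after its value was seen. Clec3b stood at -3.57, -3.57 and -3.19 in Estradiol-Soy and at 0.93, 0.56 and 1.17 in Soy, at 0.00 and 0.02 in Estradiol and at -0.31, -3.24 and 0.87 in Casein. Casein pool 2 lay with the Estradiol-Soy pools, and the difference was -5.24 ± 1.21 (limma adjusted p = 0.537). Erythroid genes had negative differences in all 6 measured, while 47.1% of all genes lay above 0. The beta-globin gene Hbb was at -1.35 ± 0.59 and the heme synthesis gene Alas2 at -1.27 ± 0.48. These 2 had an unadjusted p under 0.05, and no erythroid gene had without Casein pool 1, Estradiol pool 1, Soy pool 3, Estradiol-Soy pool 1 or Estradiol-Soy pool 2. Cnp, a myelin enzyme, had a difference of -1.43 ± 0.31, with 1.06 and 0.65 in Estradiol and at most 0.21 elsewhere, and the collagen gene Col6a6 had 1.58 ± 0.44. The regulatory subunit gene of phosphoinositide kinase, Pik3r1, had -1.74 ± 0.47 and the chemokine gene Cxcl9 1.25 ± 0.35. The probe set of smallest p among all 31042 was not named here and had 1.44 ± 0.17, with -1.12 and -1.14 in Estradiol and -0.39 or above in every other sample (limma adjusted p over probe sets = 0.183).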
